A study of Homo sapiens with 21 samples.

Results

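The transcriptomes of differentiated SH-SY5Y cells exposed to 8:2 FTS and to 8:2 FTOH were compared. Both compounds are fluorotelomers, in which a fully fluorinated carbon tail is joined to a short hydrocarbon linker. 8:2 FTS carries a sulfonic acid at the end of that linker and 8:2 FTOH an alcohol, so the pair differs in the head group and shares the chain. The members were chosen by their treatment label, as the 3 libraries of 8:2 FTS and the 3 libraries of 8:2 FTOH, 6 of the 21 libraries in the series. All 24879 genes that passed a filter on low counts were tested.

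SH-SY5Y cells come from a human neuroblastoma and can be made neuron-like in culture. In every group the cells were wild type and had been differentiated for 11 days. The 8:2 FTS cells and the 8:2 FTOH cells then received 30 µM of their compound for 24 h in a solution with 1% methanol. The Control group, also 3 libraries, serves here only to place the levels of both compounds, and the methanol content of its medium is not given in the sources used here. The other 12 libraries came from cells given PFOA, PFOS, PFDA or PFDS, 3 libraries each, at the same dose and time. The treatments are described as done in triplicate, with no statement that the 3 libraries are separate cultures, so each p-value reflects the spread among libraries, which could be technical. All cells belong to a single tumour line.

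As background, a sulfonic acid group is charged at the pH of culture medium, whereas an alcohol group is not. Animal and cell studies have shown that fluorotelomer alcohols are oxidised by cells through aldehydes to perfluorinated carboxylic acids, and that the aldehydes can react with glutathione and proteins. Genes of the NRF2 pathway respond to such electrophiles, and immediate early genes such as EGR1 and FOS respond within minutes to growth factor and calcium signals. Neither metabolites nor protein levels were measured in these libraries.

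The labelled line was checked against its defining markers. All 12 markers of the noradrenergic neuroblastoma state were tested, with a summed level of 3918 to 4308 CPM, counts scaled to a common library size, in 8:2 FTS cells and 3695 to 4381 CPM in 8:2 FTOH cells. Of the 12 markers of the mesenchymal state 8 were tested, and PRRX1, YAP1, MEOX1 and POSTN did not pass the filter. The 8 tested summed to 455 to 498 CPM in 8:2 FTS cells and 470 to 503 CPM in 8:2 FTOH cells. Schwann or glial markers summed to 13.8 to 17.5 CPM in 8:2 FTS cells and 14 to 14.6 CPM in 8:2 FTOH cells, with FOXD3 and OLIG2 not tested. The median log2 fold changes of these lists between the compounds were -0.02, -0.03 and 0.02, against 0.00 over all genes.

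Total counts were 20876392, 12583505 and 11877912 in the 8:2 FTS libraries and 12316603, 25330837 and 7680024 in the 8:2 FTOH libraries, so 8:2 FTOH replicate 3 was the shallowest of the series. In that library 2.90% of all counts fell on mitochondrial ribosomal RNA, and in Control replicate 3 1.96% did, against at most 0.02% in the other 5 libraries of the 2 compounds. Both libraries are also missing from the authors' normalized table, which holds 19 of the 21. The mitochondrial ribosomal genes MT-RNR1 and MT-RNR2 were tested with the rest and are not described further for that reason. Values that rest on 8:2 FTOH replicate 3 are given below with and without it where a call or direction depends on it. Across genes, Pearson correlations of log2 CPM ran from 0.9768 to 0.9921 between an 8:2 FTS and an 8:2 FTOH library and from 0.9763 to 0.9882 between libraries of the same compound.

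No gene passed an adjusted p of 0.05 between 8:2 FTS and 8:2 FTOH. In edgeR's quasi-likelihood test with Benjamini-Hochberg adjustment 0 of 24879 genes passed, a share of 0%, and the smallest adjusted p was 0.203. At an unadjusted p under 0.05 there were 811 genes, 367 with higher values in 8:2 FTS cells (1.48%) and 444 with lower values (1.78%), together 3.26% of those tested. The 3 libraries of each compound did not overlap for 1053 genes with higher values in 8:2 FTS cells (4.23%) and 1045 with lower values (4.20%). DESeq2, run as an alternative on the same genes, called 3 genes lower in 8:2 FTS cells and 0 higher, with 846 at an unadjusted p under 0.05. Those 3 were GPX3, SPP1 and UCHL1, each with an adjusted p of 0.0255.

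How large a difference these libraries could have missed depends on the level of the gene. Of 19846 genes with a mean of 1 CPM or more, 85.0% had a 95% interval that stayed within 2-fold either way and 62.3% within 1.5-fold. Of 11162 genes with 10 CPM or more, 99.7% had an interval within 2-fold and 97.7% within 1.5-fold, with a median half-width of 0.20 on the log2 scale. At that level the 5th and 95th percentiles of the log2 fold change were -0.17 and 0.16. For most genes at 10 CPM or more the interval thus lies inside a 2-fold difference between the head groups, while under that level it often reaches beyond.

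**Figure D1:**
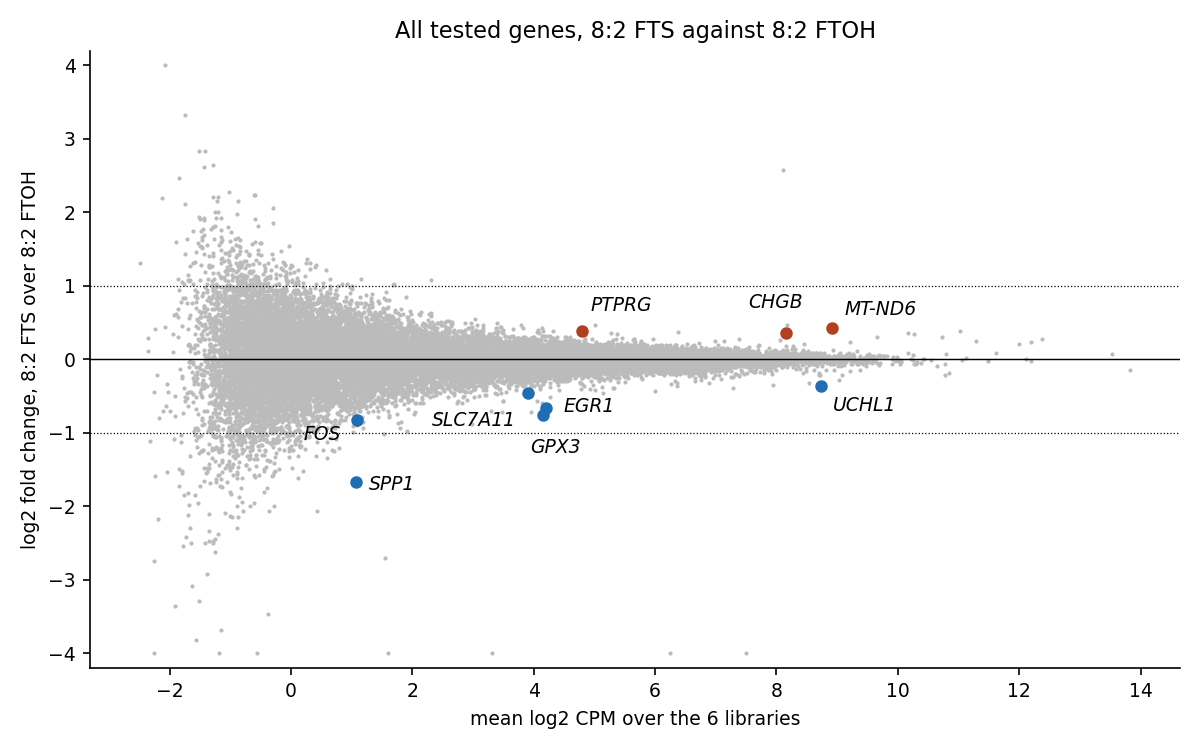
Each point is a gene, with its mean log2 CPM over the 6 libraries on the horizontal axis and its log2 fold change, 8:2 FTS over 8:2 FTOH, on the vertical axis. Dotted lines mark a 2-fold difference, values beyond 4 are drawn at 4, and genes described in the text are coloured red where higher and blue where lower in 8:2 FTS cells. None of the 24879 points passed an adjusted p of 0.05, and the cloud narrows towards 0 as the level increases.

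Closest to the threshold, all with lower values in 8:2 FTS cells, were GPX3, SPP1 and UCHL1. GPX3 (chr5:151020591-151028988, hg38), which encodes the extracellular glutathione peroxidase, had 13.6, 13.3 and 14.1 CPM in 8:2 FTS cells, against 18.8, 26.6 and 23.5 CPM in 8:2 FTOH cells. SPP1 encodes the secreted phosphoprotein osteopontin and had 0.962, 0.922 and 1.54 CPM in 8:2 FTS cells, against 3.21, 3.87 and 3.49 CPM in 8:2 FTOH cells. UCHL1, the ubiquitin hydrolase abundant in neurons, had 369, 358 and 396 CPM in 8:2 FTS cells, against 452, 527 and 462 CPM in 8:2 FTOH cells. For all 3 genes every 8:2 FTS library lay under every 8:2 FTOH library, as for 4.20% of all genes. Since these 3 were picked by p from the same libraries, that is a description. The log2 fold changes were -0.76 (SE 0.15, 95% interval -1.07 to -0.45, adjusted p = 0.203) for GPX3, -1.67 (SE 0.34, -2.36 to -0.97, adjusted p = 0.203) for SPP1 and -0.36 (SE 0.08, -0.52 to -0.20, adjusted p = 0.266) for UCHL1.

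For GPX3 and UCHL1 Control lay with the 8:2 FTS cells rather than with the 8:2 FTOH cells in level. For SPP1 the Control mean lay between the libraries of the compounds. The Control libraries averaged 14.9 ± 2.51 CPM for GPX3, 1.84 ± 0.775 CPM for SPP1 and 380 ± 13.3 CPM for UCHL1 (SD, n = 3). Against Control, the log2 fold change of GPX3 was -0.13 with 8:2 FTS and 0.63 with 8:2 FTOH, and that of UCHL1 was -0.02 with 8:2 FTS and 0.34 with 8:2 FTOH. None of these 4 values passed, with adjusted p of 0.899, 0.0920, 0.970 and 0.0850 in that order. Across the 17 alternative settings, the adjusted p between the compounds ran from 0.00334 to 1.00 for GPX3, from 0.0255 to 1.00 for SPP1 and from 0.0255 to 1.00 for UCHL1, with no change of sign.

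EGR1, an immediate early transcription factor, followed in the order of p. It had 14.3, 14.2 and 15.3 CPM in 8:2 FTS cells, against 21.7, 21.5 and 26.8 CPM in 8:2 FTOH cells and 45.7, 33 and 28.7 CPM in Control cells. The 3 groups did not overlap, with the 8:2 FTS cells lowest and Control highest. The difference between the compounds was -0.66 on the log2 scale (SE 0.16, -0.98 to -0.34, adjusted p = 0.664), and among the 17 alternative settings it passed in the 1 with no filter on low counts (adjusted p = 0.0100).

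The other 8 genes with the smallest p and lower values in 8:2 FTS cells had log2 fold changes from -2.06 to -0.25. NSFL1C, the p47 cofactor of the p97 ATPase, had 69.0, 67.6 and 68.9 CPM in 8:2 FTS cells, against 79.9, 91.1 and 86.4 CPM in 8:2 FTOH cells. DHRS3, a retinaldehyde reductase, had 32, 30.9 and 27.5 CPM in 8:2 FTS cells, against 46, 42.5 and 35.8 CPM in 8:2 FTOH cells. DYNC1I1, a cytoplasmic dynein intermediate chain, had 6.35, 6.30 and 4.87 CPM in 8:2 FTS cells, against 7.33, 13.7 and 11.1 CPM in 8:2 FTOH cells (-0.88). The remaining genes were ACADVL, which encodes the very long chain acyl-CoA dehydrogenase (log2 fold change -0.32), DAP3 of the mitochondrial ribosome (-0.25), the secreted peptidase inhibitor PI15 (-0.39), KIAA0319 (-0.57) and the actin-binding calponin CNN1 (-2.06, at under 3 CPM). The libraries of the compounds did not overlap for any of these 8 genes, against 4.20% of all genes in that direction. The genes were chosen by their p between the same libraries, so the lack of overlap is a description. Their adjusted p ran from 0.664 to 0.957.

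On the side with higher values in 8:2 FTS cells, the genes nearest to the threshold were farther from it. PTPRG, a receptor tyrosine phosphatase, had 29.8, 29.7 and 35.7 CPM in 8:2 FTS cells, against 24.9, 24.6 and 22.9 CPM in 8:2 FTOH cells (log2 fold change 0.38, 0.17 to 0.60, adjusted p = 0.957). CHGB, which encodes chromogranin B of dense-core vesicles, had 334, 285 and 348 CPM in 8:2 FTS cells, against 241, 235 and 278 CPM in 8:2 FTOH cells (0.36, 0.14 to 0.59, adjusted p = 1.000). Its Control libraries had 374, 365 and 351 CPM, above every library of both compounds. NHSL2 (0.36), the extracellular matrix gene FRAS1 (0.25), the netrin family gene NTNG2 (0.34), SNX22 (0.46), the sodium pump subunit ATP1B2 (0.43) and the nuclear receptor NR2F1 (0.27) were further genes of moderate level. DSCAML1, CREG2, FAM228A and TMEM229B had log2 fold changes of 1.91, 1.85, 1.09 and 0.96 at levels under 5 CPM in every library. NTNG2 overlapped between the compounds and the other 11 genes did not, against 4.23% of all genes in that direction. Here too the genes were chosen by their p between the same libraries. Exons of PTPRG, SNX22, FAM228A and NR2F1, and of SPP1, ACADVL and DAP3 on the other side, overlap another gene, and reads of such pairs are uncertain because counting did not use strand.

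**Figure D2:**
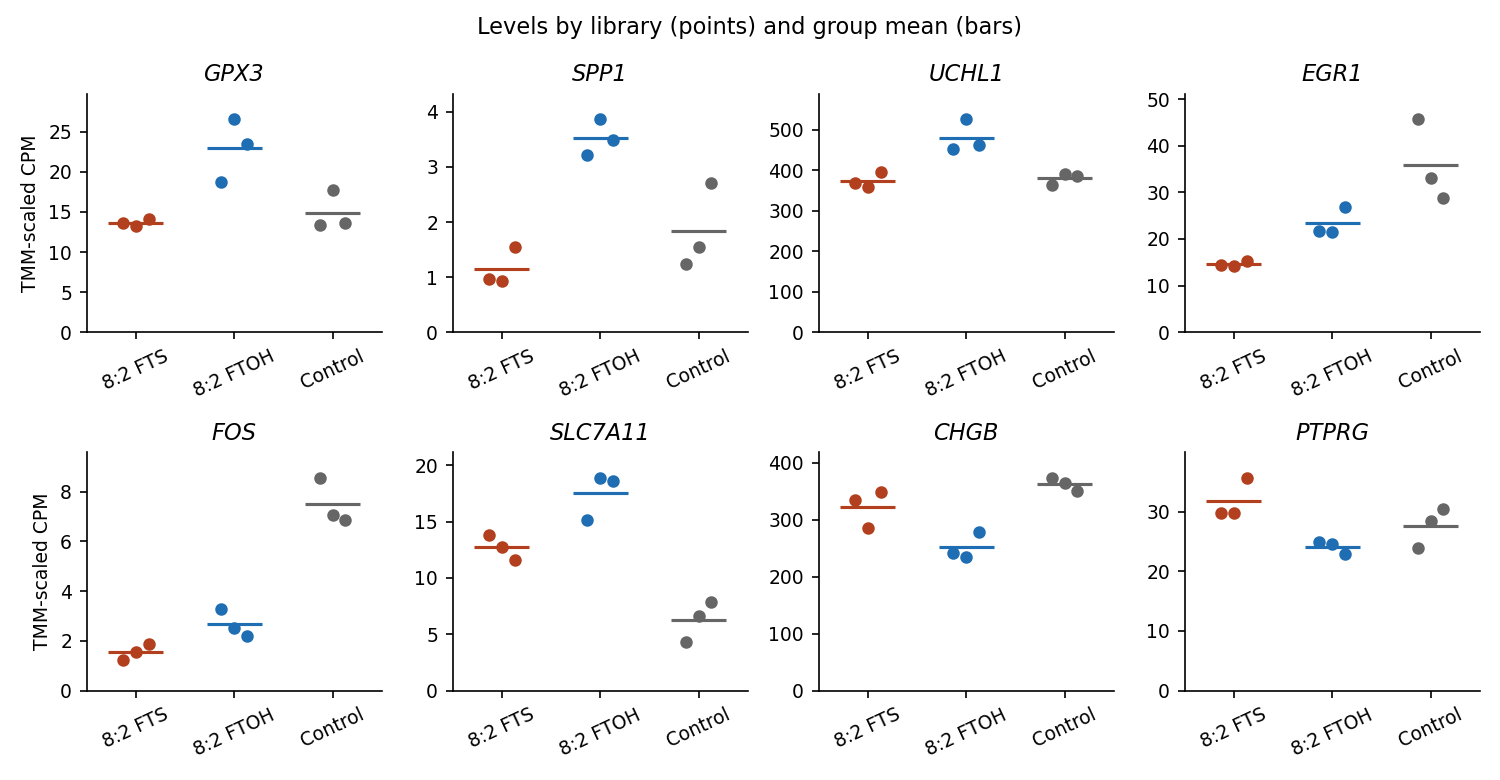
TMM-scaled CPM of 8 genes in 8:2 FTS, 8:2 FTOH and Control cells, with 1 point per library and a bar at each group mean, on axes that start at 0. GPX3, SPP1 and UCHL1 are higher in the 8:2 FTOH libraries than in the 8:2 FTS and Control libraries. EGR1 and FOS are lowest in 8:2 FTS cells and highest in Control cells, and SLC7A11 is highest in 8:2 FTOH cells.

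Both compounds were next set side by side through the genes that passed against Control, to see how far the head group altered them. Each compound was tested against the same 3 Control libraries, so the calls of both comparisons share those samples and their overlap is not a result. With 8:2 FTS 3 genes rose (0.0121% of those tested) and 18 fell (0.0724%), and with 8:2 FTOH 1 gene rose (0.00402%) and 7 fell (0.0281%). In all 25 genes passed for either compound, 21 for 8:2 FTS and 8 for 8:2 FTOH. The 4 called for both are 19% of the first list and 50% of the second. These counts depended on single libraries. The 21 genes for 8:2 FTS became 3, 6 and 13 without 8:2 FTS replicates 1, 2 and 3 and 9, 4 and 44 without Control replicates 1, 2 and 3. The 8 genes for 8:2 FTOH became 15, 1 and 1 without 8:2 FTOH replicates 1, 2 and 3 and 2, 1 and 32 without Control replicates 1, 2 and 3.

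Between the compounds none of the 25 genes passed, although 12 had an unadjusted p under 0.05, against 3.26% of all genes, and 13 did not overlap, against 4.23% of all genes higher and 4.20% lower. As the genes were chosen for their distance from Control, these shares are a description. For 20 of the 25 the interval of the difference stayed within 2-fold either way, and for 15 within 1.5-fold. The log2 difference was under 0 for 18 of them.

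FOS, a partner in the AP-1 transcription factor, fell with both compounds relative to Control. It had 1.25, 1.54 and 1.88 CPM in 8:2 FTS cells, 3.29, 2.53 and 2.20 CPM in 8:2 FTOH cells and 8.57, 7.08 and 6.85 CPM in Control cells. The log2 fold changes against Control were -2.30 with 8:2 FTS (adjusted p = 9.53e-06) and -1.48 with 8:2 FTOH (adjusted p = 0.0200). Between the compounds the difference was -0.82 (-1.47 to -0.17), with no overlap of libraries and an adjusted p of 1.000. EGR1 passed against Control with 8:2 FTS (-1.30, adjusted p = 3.29e-06) and not with 8:2 FTOH (-0.63, adjusted p = 0.0920).

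SLC7A11, the cystine transporter subunit that feeds glutathione synthesis, rose with both compounds. It had 13.8, 12.7 and 11.6 CPM in 8:2 FTS cells, 15.1, 18.9 and 18.6 CPM in 8:2 FTOH cells and 4.31, 6.66 and 7.90 CPM in Control cells. Every library of either compound exceeded every Control library, and the 8:2 FTOH libraries were the highest. Against Control the log2 fold change was 1.02 with 8:2 FTS (adjusted p = 0.00143) and 1.48 with 8:2 FTOH (adjusted p = 3.21e-07). The difference between the compounds was -0.46 (-0.78 to -0.14, adjusted p = 1.000). Its exons overlap the antisense gene SLC7A11-AS1, and counting did not use strand.

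PLK2, a polo-like kinase induced by neuronal activity, had nearly equal means with both head groups. Its levels were 30.3, 30.3 and 26.6 CPM in 8:2 FTS cells, 29.4, 29.2 and 28.7 CPM in 8:2 FTOH cells and 45, 48.6 and 41 CPM in Control cells. Both log2 fold changes against Control were -0.62, and the difference had an interval of -0.24 to 0.24. The amino acid transporter SLC7A5 was likewise close, at 0.48 with 8:2 FTS and 0.43 with 8:2 FTOH against Control and a difference of 0.04 (-0.14 to 0.23). The small nuclear RNA gene RNVU1-25 passed with both compounds, at -0.96 with 8:2 FTS and -0.98 with 8:2 FTOH, with a difference of 0.02 (-0.41 to 0.46).

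Several genes called with 8:2 FTS alone had 8:2 FTOH levels between those with 8:2 FTS and Control. DKK2, a secreted WNT antagonist, had 51.2, 46.4 and 51.7 CPM in 8:2 FTS cells, 63.6, 54.6 and 58.0 CPM in 8:2 FTOH cells and 68.1, 69.5 and 65.9 CPM in Control cells. PFDN4, a prefoldin subunit, had 28.4, 27.4 and 27.2 CPM in 8:2 FTS cells, 36.8, 33 and 42.5 CPM in 8:2 FTOH cells and 33.5, 49.6 and 43.5 CPM in Control cells. The differences between the compounds were -0.24 (-0.41 to -0.06) for DKK2 and -0.42 (-0.69 to -0.15) for PFDN4. GALR2, a galanin receptor at under 2 CPM, had 0.0481, 0.154 and 0 CPM in 8:2 FTS cells, against 0.329, 0.750 and 0.517 CPM in 8:2 FTOH cells. Genes called with 8:2 FTOH and not with 8:2 FTS were CHORDC1, CDH11, TCEAL5 and ATP5PF, with differences of 0.20, 0.13, 0.43 and 0.10. A gene that passes against Control with only one of the compounds is not shown to differ between them, and none of these differences passed the direct test.

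**Figure D3:**
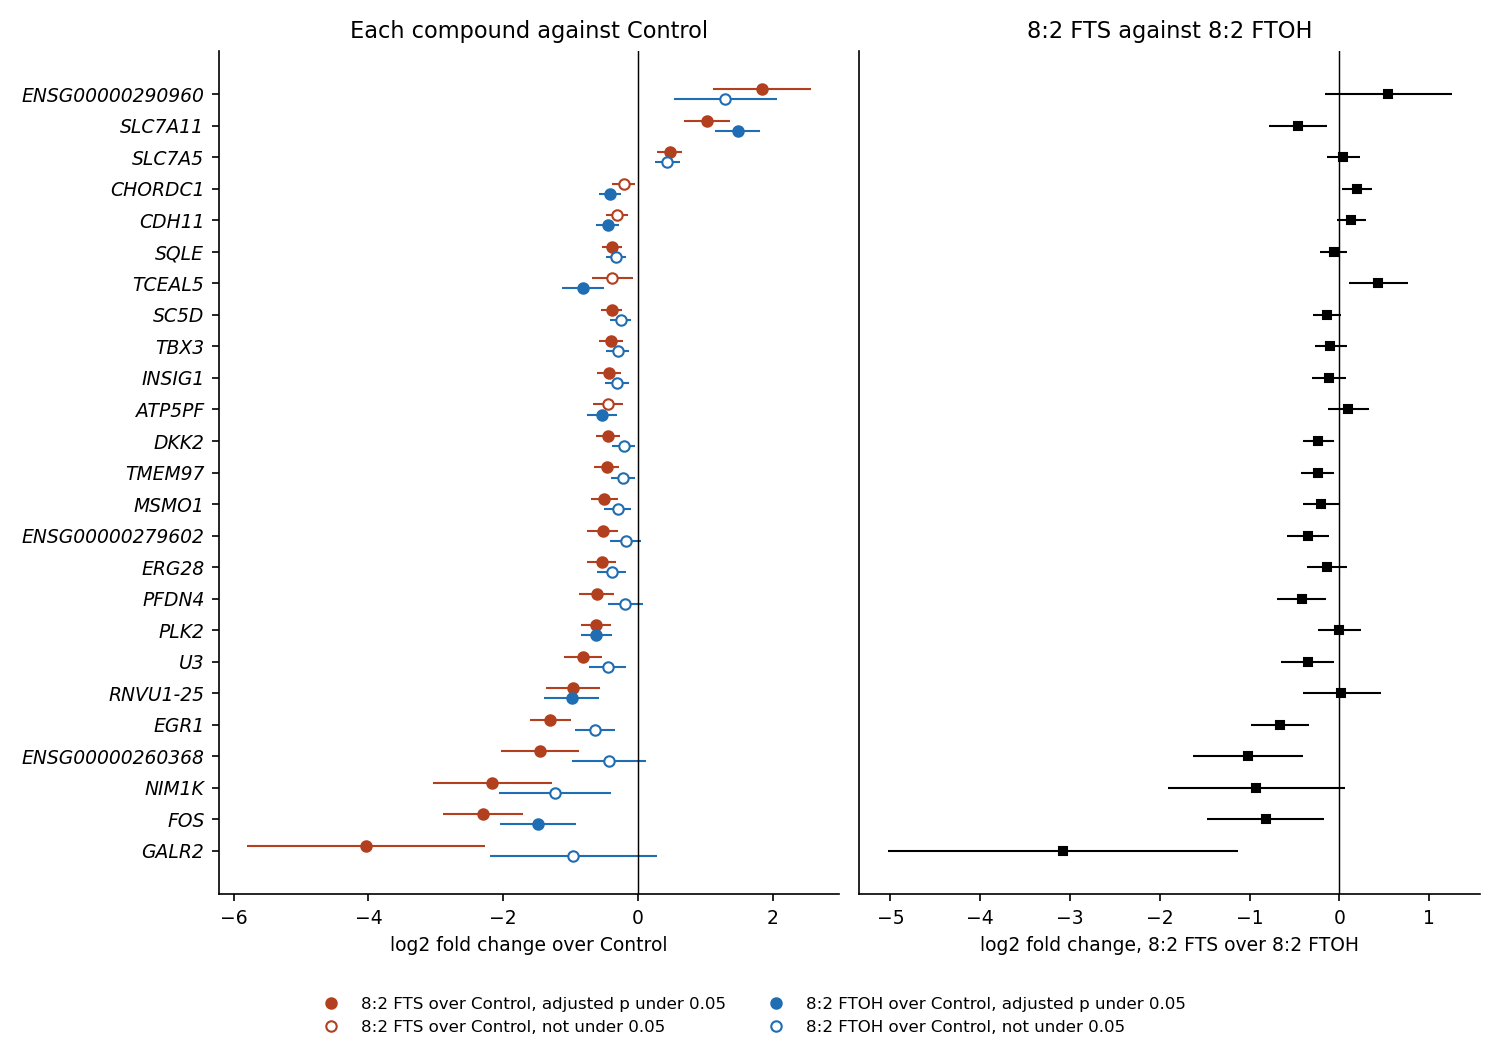
The left panel gives log2 fold changes over Control with 95% intervals for 8:2 FTS (red) and 8:2 FTOH (blue) for the 25 genes that passed with either compound, filled where the adjusted p was under 0.05. The right panel gives the direct difference, 8:2 FTS over 8:2 FTOH, with its 95% interval. PLK2 and SLC7A5 sit at 0 on the right, whereas EGR1, FOS and SLC7A11 sit under it with none past the threshold.

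The promoter of EGR1 is shown because this gene had the lowest p of the immediate early genes between the compounds. Promoter sequences are from RefSeq (GRCh38.p14) and hold the 250 bases before the annotated start. Capitals mark CArG boxes, the element bound by serum response factor, searched on both strands. EGR1 lies on the plus strand at chr5:138465229-138465478, and its window holds 2 matches.
EGR1: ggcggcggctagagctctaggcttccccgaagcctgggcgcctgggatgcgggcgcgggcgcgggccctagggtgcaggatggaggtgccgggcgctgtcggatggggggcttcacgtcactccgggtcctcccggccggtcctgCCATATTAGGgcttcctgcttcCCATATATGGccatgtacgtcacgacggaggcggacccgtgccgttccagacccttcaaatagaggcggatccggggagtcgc
Of 27305 RefSeq promoters, 312 hold a match (1.14%), and of the 15 tested immediate early genes with an entry EGR1 is the 1 that does. The FOS window of the same length holds 0 matches. Bases farther from the start were not searched, so a CArG box of either gene outside the window would not be counted. A match describes letters in this window and is not a measured site.

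Of the 18 immediate early genes tested, 12 had values under 0 and 6 over 0, and the median log2 fold change was -0.05, against 0.00 over all genes. Beside EGR1 and FOS none had an unadjusted p under 0.05. The third in order of p was BTG2, an antiproliferative gene that is also a p53 target, with 45.6, 53.6 and 46 CPM in 8:2 FTS cells, against 40.9, 43.6 and 42.4 CPM in 8:2 FTOH cells (0.19). JUN stood at -0.02 (-0.29 to 0.25), IER2 at -0.03 and NR4A1 at -0.02. Without 8:2 FTOH replicate 3 the median of the list was -0.15. The 15 genes of ERK feedback had a median of 0.01 and an interval within 2-fold for all 15, with DUSP4 (0.18), SPRY2 (-0.12) and ETV5 (0.07) first by p.

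Antioxidant genes were mostly lower in 8:2 FTS cells, by small amounts. Of 24 tested targets of NRF2, the transcription factor that responds to oxidants and electrophiles, 21 had values under 0. The median was -0.13, 5 had an unadjusted p under 0.05, all lower, against 1.78% of all genes in that direction, and 0 passed. ME1, the cytosolic malic enzyme that makes NADPH, had 38.4, 39.2 and 44.2 CPM in 8:2 FTS cells, against 47.1, 50.8 and 52.9 CPM in 8:2 FTOH cells (-0.31, -0.51 to -0.11). PRDX1, a peroxiredoxin, had 75.9, 60.7 and 83.6 CPM in 8:2 FTS cells, against 81.0, 101 and 86.0 CPM in 8:2 FTOH cells (-0.29). ME1 did not overlap between the compounds and PRDX1 did. Thioredoxin reductase TXNRD1 (-0.24) and thioredoxin TXN (-0.20) were the others with SLC7A11, while the heme oxygenase gene HMOX1 (-0.07), GCLC (0.00) and the ferritin genes FTL (-0.01) and FTH1 (0.01) stood near 0. The list medians against Control were 0.01 with 8:2 FTS and 0.09 with 8:2 FTOH.

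The ME1 promoter is shown because ME1 had the lowest p of these NRF2 targets and its window holds the core of the antioxidant response element. That core was searched as TGACNNNGC on both strands, and capitals mark it. The window lies on the minus strand at chr6:83431052-83431301, and the matched letters also hold the AP-1 motif TGACTCA.
ME1: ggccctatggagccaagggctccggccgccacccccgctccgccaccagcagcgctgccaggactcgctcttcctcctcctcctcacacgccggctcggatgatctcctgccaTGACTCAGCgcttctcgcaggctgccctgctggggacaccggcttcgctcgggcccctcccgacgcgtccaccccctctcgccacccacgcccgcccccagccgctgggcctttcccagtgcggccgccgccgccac
The core occurs in 4 of the 17 NRF2 targets with an entry (23.5%), which are GCLM, TXNRD1, PGD and ME1, and in 3013 of all 27305 promoters (11.0%).

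Among the listed glutathione and ferroptosis genes, which do not include GPX3, the other members lay nearer to 0 than SLC7A11. The median was -0.01 over 19 tested, with GSTP1, a glutathione transferase, at -0.17 and the acyltransferase LPCAT3 at 0.31. For the integrated stress response under ATF4, 14 of 28 genes had values over 0 and 14 under 0, and the median was 0.00. Against Control the medians of that list were 0.28 with 8:2 FTS and 0.27 with 8:2 FTOH. The glycine transporter SLC6A9 had 8.56, 8.30 and 10.4 CPM in 8:2 FTS cells, against 6.09, 5.72 and 8.02 CPM in 8:2 FTOH cells (0.49, 0.12 to 0.85). ALDH1L2, the mitochondrial folate enzyme, stood at 0.21. Cytosolic aminoacyl-tRNA synthetases had a median of 0.03, with YARS1 (0.11), MARS1 (0.09) and WARS1 (0.10) leading.

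Genes of drug metabolism had small differences on both sides of 0. Of 44 listed drug-metabolizing enzymes 27 were tested, 13 with values over 0 and 14 under 0, and the median was -0.01. Alcohol and aldehyde dehydrogenases stood at -0.13 (-0.30 to 0.03) for ADH5, -0.12 (-0.28 to 0.04) for ALDH3A2 and -0.12 (-0.32 to 0.07) for ALDH2. NQO1, a quinone reductase, had 5.00, 7.99 and 7.35 CPM in 8:2 FTS cells, against 9.22, 8.33 and 7.89 CPM in 8:2 FTOH cells (-0.35, -0.75 to 0.06), and CYP2U1 stood at 0.20. Transporters of the ABC and organic anion families had a median of -0.01, with the peroxisomal transporter ABCD3 at -0.19, ABCA7 at -0.33 and SLC22A6 at -1.57 on levels under 1 CPM.

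Cholesterol genes were mostly lower in 8:2 FTS cells, by small amounts. Of 24 tested genes of cholesterol synthesis and uptake 21 had values under 0, with a median of -0.10 and a range of -0.21 to 0.26, and 0 had an unadjusted p under 0.05. The methylsterol monooxygenase gene MSMO1 had 163, 146 and 142 CPM in 8:2 FTS cells, 185, 176 and 157 CPM in 8:2 FTOH cells and a Control mean of 212 CPM. HMGCS1 (-0.21) and the squalene synthase FDFT1 (-0.16) lay on the same side, and PMVK (0.26) on the other. The intervals of all 24 genes stayed within 2-fold. Against Control the list medians were -0.34 with 8:2 FTS and -0.24 with 8:2 FTOH, and 4 members fell with 8:2 FTS, namely MSMO1, SQLE, SC5D and INSIG1, against 0.0724% of all genes, and 0 fell with 8:2 FTOH, against 0.0281%. The 21 calls of 8:2 FTS over all genes became 3 without 8:2 FTS replicate 1.

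Other lipid lists had medians near 0. Fatty acid synthesis and desaturation genes had -0.02, with 15 of 21 under 0, though ACSL1 stood at 0.20 and SCD5 at 0.14. PPAR targets and fatty acid oxidation genes had -0.02 over 30 tested, where ACADVL was joined by the carnitine palmitoyltransferase CPT2 (-0.25) and the fatty acid binding protein FABP5 (-0.35). Sphingolipid genes had 0.02, with SPTLC2 at 0.16, CERS2 at -0.15 and SPHK1 at -0.64. Phospholipid and triacylglycerol genes had 0.03, with 19 of 29 over 0, though PCYT1A stood at -0.23 and LPIN1 at -0.16.

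Mitochondrially encoded messenger RNAs were higher in 8:2 FTS cells than in 8:2 FTOH cells for all 13 members, and none passed. The median log2 fold change was 0.27, the range 0.07 to 0.43, and 9 of 13 did not overlap, against 4.23% of all genes in that direction. MT-ND6, a complex I subunit, had 560, 551 and 572 CPM in 8:2 FTS cells, against 426, 402 and 424 CPM in 8:2 FTOH cells (0.43, -0.12 to 0.98, adjusted p = 1.0). MT-CO2, a cytochrome oxidase subunit, had 5465, 4732 and 5085 CPM in 8:2 FTS cells, against 4688, 4491 and 3886 CPM in 8:2 FTOH cells (0.23, 0.01 to 0.44). MT-CO3 (0.21) and MT-CYB (0.25) followed in order of p. The 13 genes come from shared precursor transcripts, so they are not independent of each other, and MT-ND6 lies on the other strand, which counting did not separate.

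Their share of all counts was 4.14%, 3.75% and 3.95% in 8:2 FTS libraries and 3.51%, 3.50% and 3.19% in 8:2 FTOH libraries. The means were 3.95 ± 0.197% and 3.40 ± 0.181% (SD, n = 3 each), a difference of 0.552 percentage points with a two-sided exact permutation p of 0.10, the smallest that 3 against 3 libraries allow. Control had 4.27 ± 0.136%. Over all genes of the mitochondrial chromosome, ribosomal RNA included, the share was 3.98 ± 0.205% in 8:2 FTS libraries and 4.39 ± 1.49% in 8:2 FTOH libraries, a difference of -0.408 (exact p = 1.00), which became 0.452 without 8:2 FTOH replicate 3. In a fit of the 6 libraries alone MT-ND6 passed, with an adjusted p of 0.0281, the 1 gene that did. In bulk samples such as these, fewer cells of a type and less RNA per cell cannot be told apart. Nuclear genes of the respiratory chain had a median of 0.00 over 39 genes, with NDUFS7 at -0.50, NDUFA4 at -0.22 and SDHA at -0.25.

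**Figure D4:**
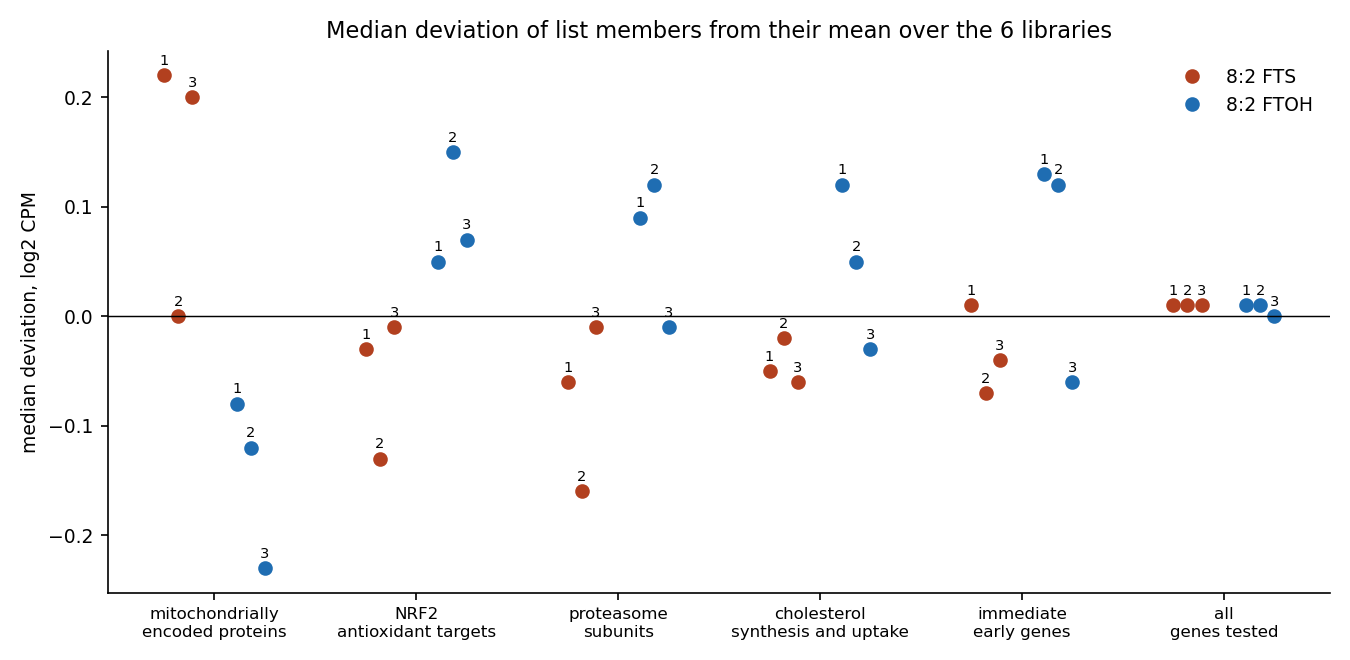
For 5 gene lists and for all genes, the median deviation of members from their own mean log2 CPM over the 6 libraries, with 8:2 FTS libraries in red, 8:2 FTOH libraries in blue and replicate numbers above the points. Mitochondrially encoded genes ran from 0.00 to 0.22 in 8:2 FTS libraries and from -0.23 to -0.08 in 8:2 FTOH libraries, and NRF2 targets from -0.13 to -0.01 and from 0.05 to 0.15. Cholesterol and immediate early genes overlapped between the compounds through 8:2 FTOH replicate 3.

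Lists of chaperones and of lysosome and autophagy genes had medians near 0. The proteasome subunits, with a median of -0.17, are described at the end. Cytosolic chaperones had a median of 0.06 over 19 genes, with CHORDC1 (0.20), the HSP90 activator AHSA1 (0.16) and HSPA1B (0.24) first by p. HSPA1B has a near-identical copy, HSPA1A, and its reads are uncertain. Chaperones of the endoplasmic reticulum had a median of 0.04 over 25, with ATF6 at -0.19, CRELD2 at 0.38 and SEL1L at 0.12. Genes of lysosomes and autophagy had -0.04 over 31, where ATG5 had 25.1, 22.5 and 24.7 CPM in 8:2 FTS cells, against 32.8, 27.2 and 30.9 CPM in 8:2 FTOH cells (-0.32, -0.53 to -0.10). GABARAPL1 (-0.30) and ATG7 (-0.19) followed.

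Neuronal genes gave small differences in both directions. Voltage-gated channels had values over 0 for 22 of 28 genes and a median of 0.08. CACNA1E, a calcium channel subunit, had 44.7, 44.3 and 41.5 CPM in 8:2 FTS cells, against 32.7, 39.4 and 37 CPM in 8:2 FTOH cells (0.26, 0.06 to 0.45), and the potassium channel genes KCNMA1 and KCNQ5 stood at 0.29 and 0.26. Synaptic vesicle and exocytosis genes had a median of 0.03 over 33, led by the granins CHGB and CHGA, the second with 274, 264 and 342 CPM in 8:2 FTS cells, against 252, 249 and 235 CPM in 8:2 FTOH cells (0.26). SYT4, a synaptotagmin, stood at -0.13.

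Transmitter genes had a median of 0.02 over 25. PNMT, which makes adrenaline, had 2.02, 2.31 and 1.28 CPM in 8:2 FTS cells, against 0.659, 0.947 and 0.388 CPM in 8:2 FTOH cells (1.37, 0.45 to 2.29), and the noradrenaline transporter SLC6A2 stood at 0.18 and the nicotinic receptor CHRNA7 at 0.15. Axon guidance genes had 0.01 over 32, with SEMA4D at 0.18 and PLXNC1 at 0.22 after NTNG2. Neuronal cytoskeleton genes had 0.00 over 34, where the microtubule-associated MAP1A had 216, 213 and 226 CPM in 8:2 FTS cells, against 231, 333 and 268 CPM in 8:2 FTOH cells (-0.35). KIF5C (0.11) and NEFM (0.19) followed. Retinoic acid genes, of interest because retinoids drive differentiation of this line, had a median of -0.08 over 21, with NTRK2 at -0.19 and RXRB at 0.16 after DHRS3. Extracellular matrix genes and integrins had 0.02 over 36, led by FBN1 at 0.20, TIMP1 at 0.35 and COL1A1 at -0.36.

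Growth and housekeeping lists had narrow ranges. Cell cycle genes had a median of -0.01 over 35 and a range of -0.11 to 0.05, with CDK1, PCNA and CCNA2 at -0.11 each. Cytosolic ribosomal proteins had -0.02 over 57, led by RPS3A (-0.21), RPL11 (0.15) and RPL34 (-0.11), and glycolysis and hypoxia genes had 0.03 over 28, led by P4HA1 (0.22), HK2 (0.22) and NDRG1 (-0.20). The p53 targets had a median of 0.07 with 21 of 25 over 0, BAX and FDXR standing at 0.18 and 0.15. Replication-dependent histones had -0.07 with 22 of 27 under 0, led by H3C10 (-0.36), H2AC4 (-0.32) and H4C14 (-0.33), a family whose near-identical copies share reads and whose list median ran from -0.19 to 0.08 under the alternatives.

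**Figure D5:**
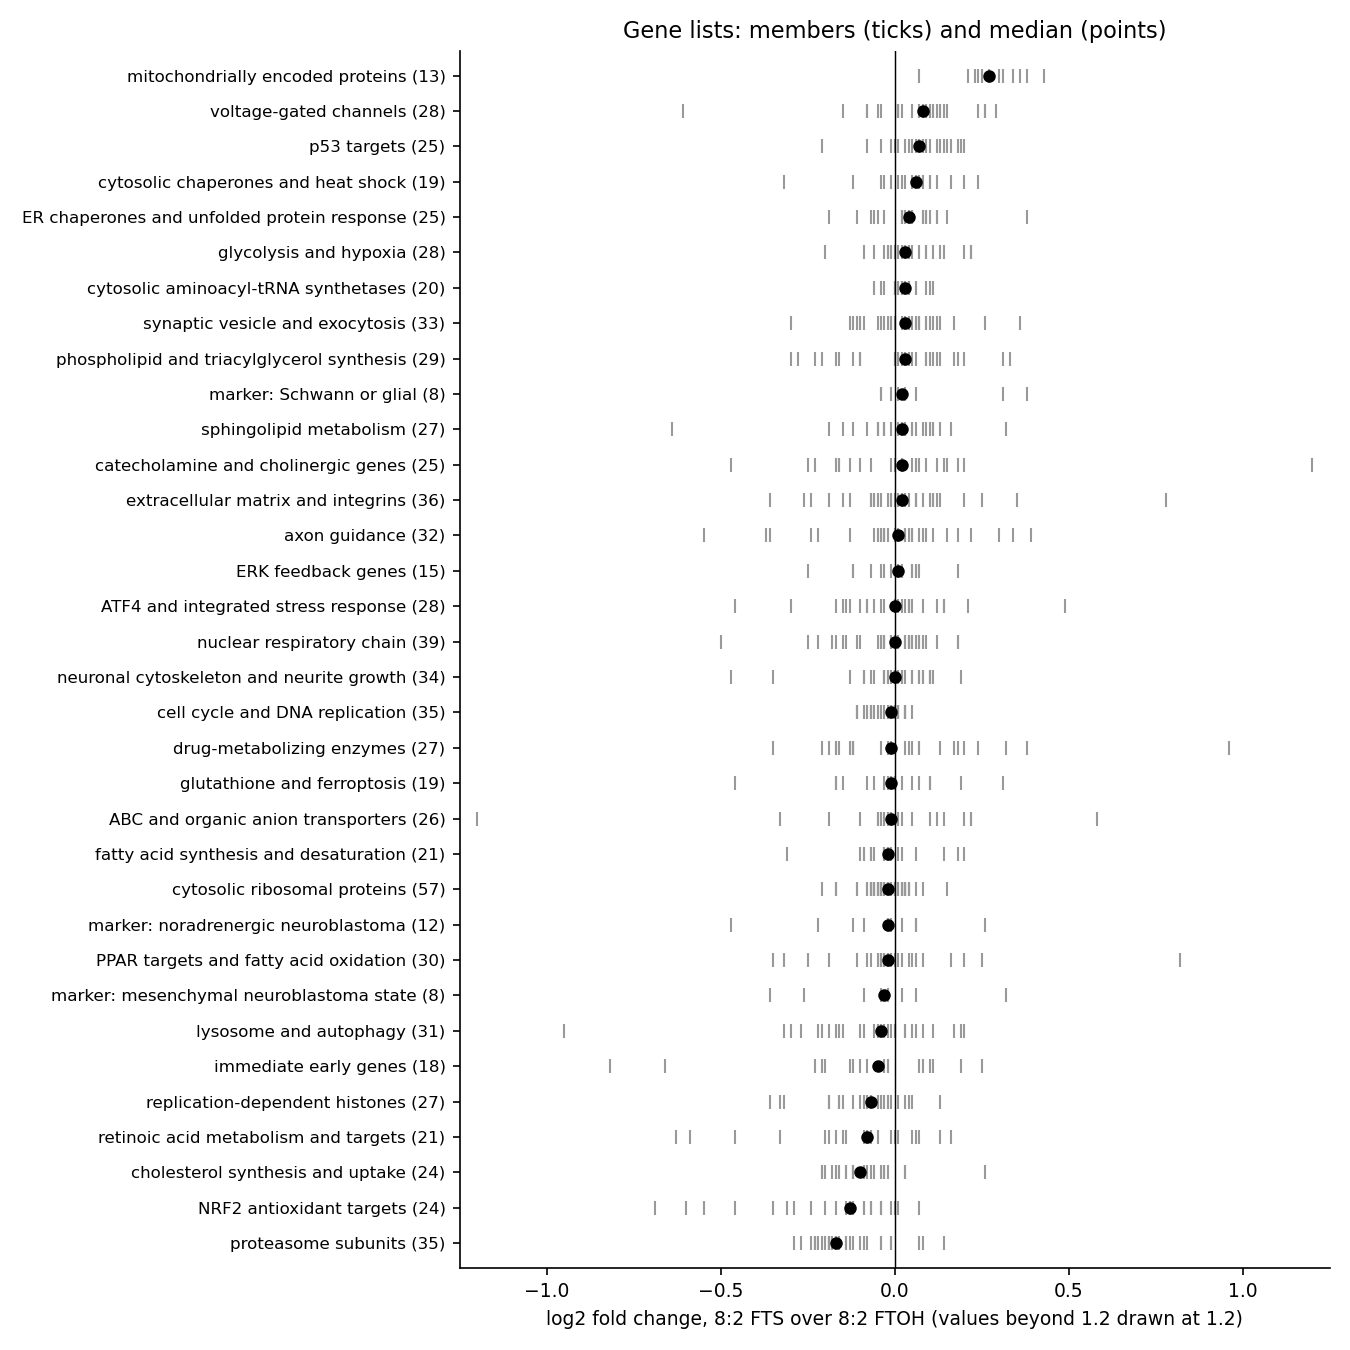
For each of 34 gene lists, with the number of members tested in brackets, ticks give the log2 fold change of each member, 8:2 FTS over 8:2 FTOH, and the point gives the median. The mitochondrially encoded genes stand highest at 0.27 and the proteasome subunits, a list added after values were seen, lowest at -0.17, while 30 of the 34 medians lie between -0.08 and 0.08.

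The head group was finally asked about in a second setting. Differences between 8:2 FTS and 8:2 FTOH were tested against those between PFDS and PFDA and between PFOS and PFOA, which are fully fluorinated pairs of a sulfonic and a carboxylic acid, so that the other member of each pair is an acid and not an alcohol. No gene passed for either, 0% of those tested, with 988 and 899 genes at an unadjusted p under 0.05 and smallest adjusted p of 0.762 and 0.603 in edgeR. SPP1 was among the genes with the smallest p in both, with a difference of differences of -2.07 (-3.02 to -1.13) against the PFDS pair and -2.19 (-3.15 to -1.22) against the PFOS pair. UCHL1 gave -0.47 (-0.69 to -0.24) and -0.40 (-0.63 to -0.18), GPX3 -0.81 and -0.68, and DHRS3 -0.40 (-0.74 to -0.06) and -0.74 (-1.08 to -0.40). For EGR1 the values were -0.84 and -0.35 and for FOS -1.47 and -0.12. SLC7A11 gave -0.38 and -0.85. The 2 tests share the 8:2 FTS and 8:2 FTOH libraries, so their values are not independent of each other or of the direct comparison.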

How the data were processed

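Gene-level RNA-seq counts were deposited by the authors for 62656 genes in 21 libraries, made with a stranded total RNA kit after ribosomal RNA removal. Per the submitters' processing notes, reads were checked with FastQC and MultiQC, aligned with HISAT2 to hg38, sorted with SAMtools and counted with featureCounts. Per the file headers, that was version 2.0.1 with no strand option, so genes that overlap on either strand can share or lose reads. The authors' normalized table was not used.

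Genes were filtered with filterByExpr and TMM-scaled in edgeR 4.0.16 (R 4.3.3), leaving 24879. A robust quasi-likelihood model was fitted over all 21 libraries (biological coefficient of variation 0.1124), and p-values were adjusted by Benjamini-Hochberg within each comparison at 0.05. Log2 fold changes are unshrunk, and 95% intervals come from their SE. CPM are TMM-scaled. DESeq2 1.42.0, other scalings and filters, a minimum fold of 1.2, fits of fewer libraries and left-out libraries were alternatives. The script was tested on simulated data. 1 pair of compounds was compared.

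By rule, the genes named were the 12 protein-coding genes of each direction with the smallest p and at least 1 CPM, the 3 of smallest p in each list, the genes called against Control, and EGR1, FOS and SLC7A11. Further list members, among them MT-ND6, JUN, IER2, HMOX1, GCLC, ALDH2 and HMGCS1, were named after their values were seen. The libraries, 33 gene lists and naming rule were chosen with earlier results of these data known. A list of proteasome subunits was added after its values were seen.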

Additional observations from a re-analysis of the deposited data

How the results depend on the processing

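Between 8:2 FTS and 8:2 FTOH 0 genes passed under 14 of the 17 alternatives, each left-out library, both replicate blocks, the minimum fold and the fit without 8:2 FTOH replicate 3 and Control replicate 3 included. The exceptions were the DESeq2 test with 3 genes (GPX3, SPP1 and UCHL1), no filter with 6 (GPX3, EGR1, SPP1 and UCHL1 lower, CHGB and the pseudogene TUBB2BP1 higher) and only the groups compared with 1 (MT-ND6). Of 2247 values of the 133 genes named by rule, MT-ND6 not among them, under alternatives, 8 moved past the threshold and 0 changed sign. Of 578 list medians 17 moved by more than the spread between libraries. Against Control, the 21 genes of 8:2 FTS became 41 with DESeq2, 3 with the minimum fold, 126 with no filter, 50 with only the groups compared, 41 with the replicate block and only the groups compared, and 3 to 60 with libraries left out. The 8 genes of 8:2 FTOH became 43, 1, 107, 31 and 20 in the same order, and 1 to 32 with libraries left out. The difference of differences gave 1 gene with no filter for each pair (NEFM for PFDS and PFDA, DHRS3 for PFOS and PFOA) and 0 to 1 and 0 with libraries left out. The mitochondrial share differed by 0.552 with protein-coding genes only, and by -0.840 to 0.452 with libraries left out. The cause of these moves was not tested.

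Deviations of same-numbered 8:2 FTS and 8:2 FTOH libraries correlated at 0.03, 0.01 and -0.03, against -0.08 to 0.07 for libraries of different numbers. No shared effect of the replicate number was thus seen. Such correlations cannot tell whether same-numbered libraries were prepared together. With the replicate block 0 genes passed between the compounds. Intervals stayed within 2-fold for 68.1% of all genes and for 99.7% of those at 10 CPM or more. Without 8:2 FTOH replicate 3, a library of 7680024 counts, 848 genes had an unadjusted p under 0.05, against 811 with it.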

Other observations

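Proteasome subunit genes were noticed among the genes with lower values in 8:2 FTS cells and then listed, so the list was chosen by its values and no test of it is given. Of 35 subunits and activators tested, 32 had log2 fold changes under 0, with a median of -0.17 and a range of -0.29 to 0.14. An unadjusted p under 0.05 was reached by 14, all lower, against 1.78% of all genes in that direction, and 11 did not overlap, all lower, against 4.20% of all genes. As the list was chosen by its values, these shares are a description, and 0 members passed after adjustment over all genes. PSMD11, a lid subunit of the regulatory particle, had 123, 121 and 127 CPM in 8:2 FTS cells, 144, 166 and 135 CPM in 8:2 FTOH cells and a Control mean of 127 CPM. PSMB2, a subunit of the catalytic core, had 87.8, 92.8 and 94.5 CPM in 8:2 FTS cells, 114, 123 and 97.7 CPM in 8:2 FTOH cells and a Control mean of 97.5 CPM. The list medians against Control were -0.09 with 8:2 FTS and 0.06 with 8:2 FTOH. The intervals of all 35 genes stayed within 2-fold, and the list median ran from -0.20 to -0.13 over the alternatives.

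The per-library medians of this list were -0.06, -0.16 and -0.01 in 8:2 FTS libraries and 0.09, 0.12 and -0.01 in 8:2 FTOH libraries, relative to each gene's mean over the 6. The shallow 8:2 FTOH replicate 3 thus lay with the 8:2 FTS libraries.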
